A study of Mus musculus with 8 samples.

Results

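The genes described here are the chemokine ligands of the mouse other than the lymphoid and homeostatic set Ccl19, Ccl21a, Ccl25, Cxcl12 and Cxcl13. They were chosen by symbol alone: every gene named Ccl or Cxcl with a number, plus Cx3cl1, Xcl1, Pf4 and Ppbp. The rule took 42 of the 53801 genes in the deposited table, and no measured value entered the rule, although it was written with earlier results of these data known. Of these 42, 32 had at least 1 count, and 23 passed the count filter and were tested among 15945 genes in all. A further 9 had counts but fell below the filter, and 10 were at 0 counts in every library.

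The RNA came from stromal cells that were sorted as negative for CD45 (a leukocyte marker) and CD31 (an endothelial marker) from ulcers of the small intestine. The mice were LTβR-YFP reporter animals, and every group had received indomethacin, an anti-inflammatory drug (a cyclooxygenase inhibitor) that can ulcerate the gut. The groups were 4 libraries of cells that carried the YFP reporter (YFP-positive) and 4 of cells that did not (YFP-negative), numbered 1 to 4 in each. All libraries therefore share the ulcer, the drug and the reporter strain, and none is from an uninjured gut. The sources used here do not give the element that drives the reporter, the age of the mice or whether equal numbers share an animal. The p-values thus reflect the spread among these 8 libraries, which may be technical.

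Chemokines are small secreted proteins that bind G protein-coupled receptors on leukocytes and steer their movement along a gradient. Most of those that act in inflammation are made within hours of IL-1, TNF or interferon signalling, and fibroblasts are among the sources in injured gut. CXC ligands with an ELR motif attract neutrophils through CXCR2. The MCP family attracts monocytes through CCR2, eotaxins attract eosinophils through CCR3, and CXCL9, CXCL10 and CXCL11 attract activated T and NK cells through CXCR3.

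The promoters of the most abundant neutrophil chemokine and its neighbours, and of Cxcl10, which edgeR called when libraries were paired by number, are shown first, because NF-κB and interferon sites are the known inputs of these genes. The stretches are from RefSeq on GRCm38.p6, 5′ to 3′ on the strand of the gene. Capitals mark matches to the NF-κB consensus and, at the left of Cxcl10, the interferon-stimulated response element (ISRE) core TTCNNTTTC on the opposite strand. Cxcl1 is at chr5:90891149-90891209 (plus strand), Cxcl2 at chr5:90903777-90903837 (plus), Cxcl3 at chr5:90786003-90786063 (plus) and Cxcl10 at chr5:92348958-92349127 (minus).
Cxcl1: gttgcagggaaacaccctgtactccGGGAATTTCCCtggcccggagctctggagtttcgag
Cxcl2: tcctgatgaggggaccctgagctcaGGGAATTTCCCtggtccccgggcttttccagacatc
Cxcl3: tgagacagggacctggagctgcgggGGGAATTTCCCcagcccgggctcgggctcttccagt
Cxcl10: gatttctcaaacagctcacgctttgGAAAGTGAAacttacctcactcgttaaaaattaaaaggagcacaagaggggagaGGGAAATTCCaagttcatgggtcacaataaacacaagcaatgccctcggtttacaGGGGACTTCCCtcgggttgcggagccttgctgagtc

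In Cxcl1, Cxcl2 and Cxcl3 the capitals spell the same 11 bases, in which a match on each strand overlaps the other. Counted from the annotated start, they begin at position -71 in Cxcl1, -73 in Cxcl3 and -97 in Cxcl2. Both strands of the 250 bases before the start were searched for all genes of the table. The NF-κB consensus was in 7 of the 24 members that the table holds (Ccl1, Ccl20, Ccl9, Cxcl1, Cxcl2, Cxcl3 and Cxcl10), and in 7.25% of all 32851 windows. The ISRE core was in 5 members (Ccl1, Ccl3, Cxcl9, Cxcl10 and Cxcl14) and in 7.13% of windows. The gamma-activated site TTCNNNGAA was in Ccl17 and Cxcl14 and in 7.02% of windows, and the AP-1 site TGANTCA was in 5 members and in 6.75%. The shares are of windows and the member counts are of genes: the 24 members had 29 windows. Of these 29, 7, 5, 2 and 5 held the NF-κB, ISRE, gamma-activated and AP-1 motifs. Ccl2, Ccl7, Ccl11, Cxcl5 and Cxcl16 had no entry.

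Levels are given in CPM, counts scaled to library size with TMM factors, which correct for differences in library composition. Libraries held 12481608 to 29385718 counts each, and 1 CPM was about 12.5 counts in the smallest library. Col1a1, a fibroblast collagen, stood at 8565 ± 2932 CPM (mean ± SD, n = 4) in YFP-negative and 6416 ± 1719 CPM in the YFP-positive cells. The gate was checked on its own markers. Ptprc, which encodes CD45, was at 0.877 to 4.68 CPM and 2.08 to 12.2 CPM, and Pecam1, which encodes CD31, at 11.3 to 46.9 CPM and 11.1 to 45.8 CPM. RNA of both gate markers was thus detected in every library. Both libraries of replicate number 2 stood apart on the first principal component (35.5% of the variance; 92.5 and 78.7 against -46.2 to -12.4). YFP-positive replicate 4 held the most epithelial marker RNA, 122 CPM summed over 8 genes against 11.6 to 35.1 CPM in the other 7 libraries. It also held the most endothelial marker RNA, 111 CPM summed over 7 genes against 12.6 to 74.6 CPM in the others. In bulk RNA, fewer cells of a type and less RNA per cell cannot be told apart.

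Chemokine ligand transcripts made up 0.177% to 0.459% of all counts of a library. A small number of genes supplied them: Cxcl1 and Ccl11 held 55.5% to 70.7% of the member counts, and the 12 members with a mean of at least 5 CPM held 98.5% to 99.6%. Summed over the 42 members, the level was 3889, 4883, 2237 and 1891 CPM in YFP-negative replicates 1 to 4 and 4148, 4448, 2223 and 1662 CPM in the YFP-positive replicates 1 to 4. The sum was high in numbers 1 and 2 and low in 3 and 4 in both groups, and the groups overlapped throughout.

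Per kilobase of exon, the scale on which genes of different length can be compared, Ccl11 was the most abundant member. It stood at 1038 ± 746 CPM per kb (SD, n = 4) in YFP-negative and 1177 ± 655 CPM per kb in YFP-positive cells. Cxcl1 followed at 474 ± 177 and 377 ± 198 CPM per kb, and Ccl2 at 268 ± 107 and 193 ± 91.0 CPM per kb. Next came Cxcl2 (124 ± 59.3 and 129.7 ± 79.3 CPM per kb), Cxcl5 (84.7 ± 36.6 and 92.4 ± 44.3), Ccl7 (77.2 ± 33.0 and 60.9 ± 31.2) and Cxcl10 (61.4 ± 33.3 and 44.3 ± 24.0). Cxcl16, Cxcl14 and Ccl8 lay between 29.4 and 53.2 CPM per kb in both groups, and Cxcl9 and Cxcl3 at or below 10.1 CPM per kb. Each neighbouring pair in this order differed by less than the larger of its SDs in at least 1 group. Some differed by more than both SDs in the other group, as Ccl11 and Cxcl1 did in YFP-positive cells. These SDs are the spread between libraries and cannot decide whether the order held within each library, which was not tested.

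**Figure D1:**
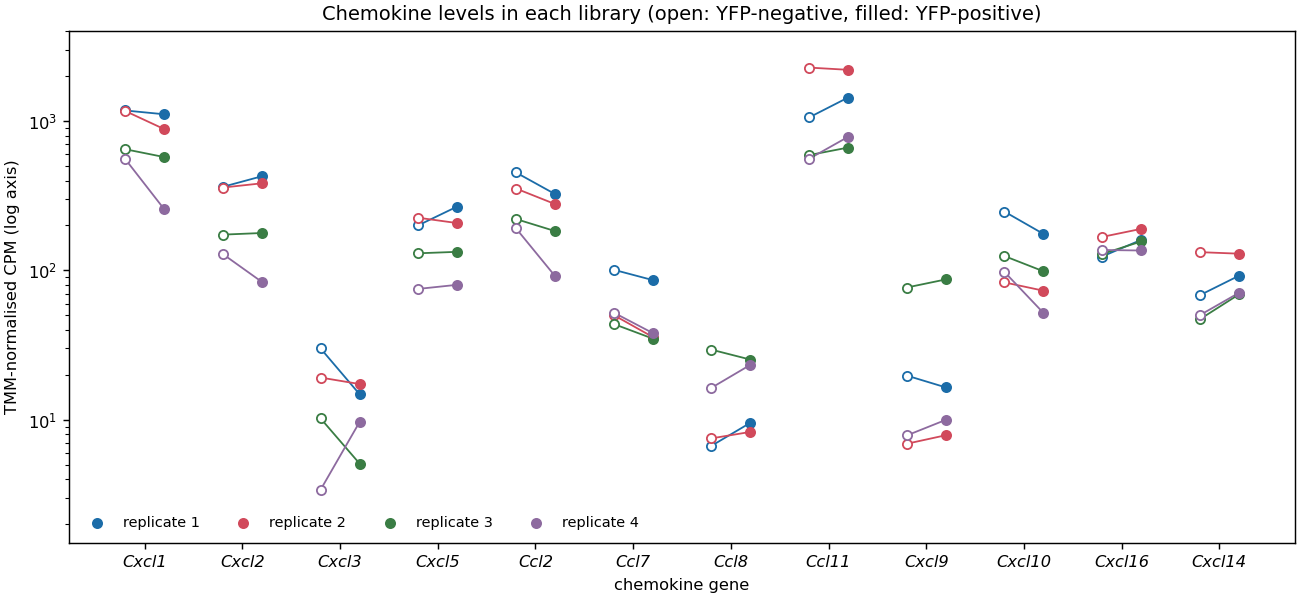
Level of the 12 most abundant chemokine genes in each library, in TMM-normalised CPM on a log axis; open points are YFP-negative and filled points YFP-positive libraries, and lines join libraries of equal replicate number. For Cxcl10, Ccl2, Ccl7 and Cxcl1 all 4 lines slope down, while the vertical spread between numbers is wider than most slopes.

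The comparison asked which chemokine genes differed between reporter-positive and reporter-negative stroma of ulcers. A gene is called when its Benjamini-Hochberg adjusted p over all tested genes is 0.05 or below. Tested on group alone with edgeR's quasi-likelihood test, 0 of the 23 members and 0% of all 15945 genes were called (lowest adjusted p = 0.99985 over all genes). Before adjustment 156 genes were higher and 169 lower at p of 0.05, with no chemokine member in either set; DESeq2 without pairing called 0 genes higher and 2 lower, again with 0 members. With the replicate number as a block, which pairs the libraries of equal number, edgeR called 2 members lower, Cxcl10 and Ccl7, and 0 higher. Over all tested genes that fit called 1.59% lower and 0.696% higher. The authors' deposited table, whose log2 fold changes differ by at most 0.0005 from those of DESeq2 with the same block, called 3 members lower at an adjusted p of 0.05 (Ccl2, Cxcl10 and Ccl7) and 0 higher, against 2.07% of its genes lower and 0.939% higher. The median log2 fold change of the 23 tested members was 0.13 with the block and 0.12 without it, against 0.00 over all genes in both fits. Without the block, the log2 fold changes of the 12 members at or above 5 CPM ran from -0.47 (Ccl2 and Cxcl10) to 0.28 (Cxcl14), and the 95% confidence interval of each of the 23 tested members included 0. Fold changes of single members are from the blocked fit.

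**Figure D2:**
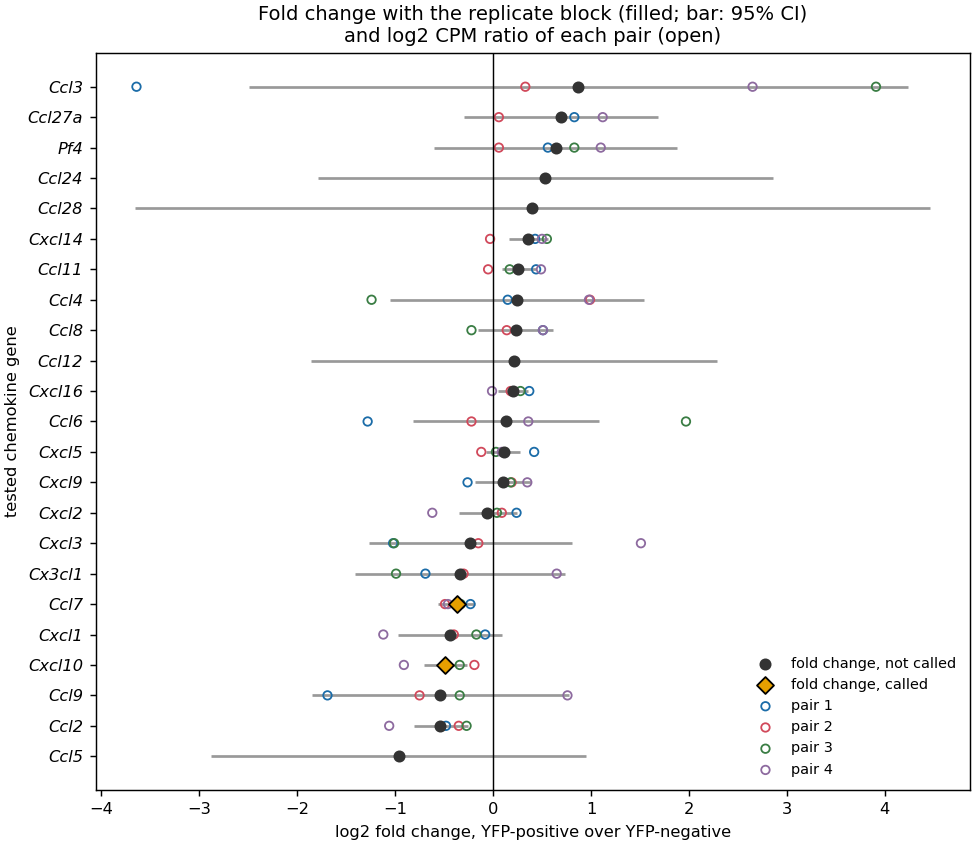
Log2 fold change (YFP-positive over YFP-negative) of the 23 tested chemokine genes in the edgeR fit with the replicate block; filled symbols are the estimates, diamonds those at or below an adjusted p of 0.05, grey bars the 95% confidence intervals, and open circles the log2 CPM ratio of each pair. Cxcl10 and Ccl7 are the called genes; the lowest members have intervals that span several log2 units, and open circles are left out for 4 genes with 0 counts in a library.

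Among the neutrophil-attracting ELR chemokines, Cxcl1, a main CXCR2 ligand of the mouse, is on chromosome 5 (GRCm38, 90891241 to 90893115, plus strand). It stood at 1179, 1169.8, 648 and 558 CPM in YFP-negative replicates 1 to 4 and at 1112, 884, 575 and 257 CPM in the YFP-positive replicates 1 to 4. The positive library was lower in 4 of 4 pairs, most of all in number 4, but the groups overlapped. Its log2 fold change with the block was -0.44 ± 0.20 (SE; edgeR adjusted p = 0.546) and did not pass.

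Cxcl2, whose annotated gene begins 12630 bases after that of Cxcl1 and which also binds CXCR2, stood at 363, 359, 174 and 129 CPM in the YFP-negative and 427, 383, 178 and 83.7 CPM in the YFP-positive replicates 1 to 4. Its positive library was higher in 3 pairs and lower in number 4. The log2 fold change with the block was -0.06 (95% confidence interval -0.35 to 0.24; edgeR adjusted p = 0.951). Cxcl5, another CXCR2 ligand, stood at 200.5, 225, 130.2 and 75.2 CPM against 268, 208, 133 and 80.1 CPM. Its groups overlapped almost fully, with a log2 fold change of 0.11 (interval -0.07 to 0.28; adjusted p = 0.739).

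Cxcl3, the least abundant of the 4 tested ELR genes, stood at 30.1, 19.2, 10.2 and 3.39 CPM in the YFP-negative and 14.8, 17.3, 5.08 and 9.66 CPM in the YFP-positive replicates 1 to 4. It was lower in 3 pairs and higher in number 4, so that its interval (-1.27 to 0.81 on the log2 scale, edgeR with the block) covers a large change either way. Summed over the 6 ELR genes, the level was 1319 ± 531 CPM (SD, n = 4) in YFP-negative and 1159 ± 619.7 CPM in the YFP-positive cells, lower in 3 of 4 pairs.

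Cxcl1 and Cxcl2 are neighbours with the same NF-κB match in their promoters, and their ratio was compared between the fractions. Counts of Cxcl1 per count of Cxcl2 were 3.25, 3.26, 3.73 and 4.33 in YFP-negative replicates 1 to 4, and 2.60, 2.31, 3.23 and 3.07 in the YFP-positive replicates of the same number. The ratio was lower in the positive library of 4 of 4 pairs, and the groups did not overlap, although only 3.25 and 3.23 separate them. The log2 difference was -0.38, with an exact two-sided permutation p of 0.0286, the smallest that 70 assignments of the libraries allow. Adjusted over the 7 neighbour ratios computed it was 0.200 and did not pass, and the rule for these ratios was chosen after values had been seen.

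The MCP family lies in a cluster on chromosome 11. Ccl2, the main ligand of CCR2 (GRCm38, 82035571 to 82037453, plus strand), stood at 453, 354, 221 and 192 CPM in the YFP-negative and 325, 278, 183 and 91.7 CPM in the YFP-positive replicates 1 to 4. The positive library was lower in 4 of 4 pairs while the groups overlapped. With the block its log2 fold change was -0.54 ± 0.12 (SE), and the call depended on the tool: edgeR gave an adjusted p of 0.0700, and the authors' deposited table an adjusted p of 3.02e-05. It also depended on the scaling, since edgeR with the block called Ccl2 with RLE factors (0.0459) and with library sizes alone (0.0288). Without both libraries of number 4 or of number 3, edgeR called it (adjusted p = 0.0198 and 0.0495), whereas without number 1 or 2 it did not (0.280 and 0.115). The gene Gm17268 overlaps Ccl2 on the other strand at a mean of 11.4 CPM. The sources used here do not give whether counting used the strand, so reads of the pair cannot be assigned with certainty.

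Ccl7, which also acts through CCR2 (82045712 to 82047525, plus strand), stood at 101, 50.3, 43.8 and 52.2 CPM in the YFP-negative and 86.2, 35.8, 35.0 and 38.1 CPM in the YFP-positive replicates 1 to 4. In each group number 1 lay far above the other 3, and the positive library was lower in 4 of 4 pairs. Ccl7 fell to 0.773-fold with the block (log2 -0.37 ± 0.09 SE; edgeR adjusted p = 0.0422; adjusted p in the authors' deposited table: 0.0347). The call was lost when any 1 number was left out (adjusted p = 0.103, 0.0872, 0.148 and 0.204 without numbers 1, 2, 3 and 4) and with library sizes alone (0.139).

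Ccl8, also of the family, varied differently between numbers: it stood at 6.68, 7.5, 29.5 and 16.3 CPM in the YFP-negative and 9.54, 8.29, 25.3 and 23.3 CPM in the YFP-positive replicates 1 to 4. Numbers 3 and 4 were high and 1 and 2 low in both groups, and the log2 fold change with the block was 0.23 (interval -0.15 to 0.61; edgeR adjusted p = 0.739). Ccl12, a mouse CCR2 ligand, had 38, 0, 0 and 19 counts against 90, 1, 0 and 16. Summed over the 4 MCP genes, the level was 382 ± 137 CPM in the YFP-negative and 286 ± 115 CPM in the YFP-positive cells (SD, n = 4), lower in 4 of 4 pairs.

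Among eotaxins, Ccl11 (chromosome 11, 82057823 to 82062955, plus strand), the ligand of CCR3 on eosinophils, was the only one at a substantial level. It stood at 1058, 2284, 592 and 559 CPM in the YFP-negative and 1439, 2206, 665 and 785 CPM in the YFP-positive replicates 1 to 4. Number 2 was highest in both groups and the only pair in which the positive library was lower. The log2 fold change with the block was 0.26 ± 0.08 (SE; edgeR adjusted p = 0.151; adjusted p in the authors' deposited table: 0.0570). Without number 2, whose libraries also stood apart on the first principal component, the blocked fit called Ccl11 higher (adjusted p = 0.0143). It was not called without number 1, 3 or 4 (0.500, 0.317 and 0.540). Ccl24, a second eotaxin, had 35 counts in all YFP-negative and 84 in all YFP-positive libraries, and the third, Ccl26, had 0.

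The CXCR3 ligands were carried by Cxcl10 and Cxcl9. Cxcl10 (chromosome 5, 92346638 to 92348889, minus strand), which type I and type II interferons induce, stood at 248, 83.1, 125 and 97.8 CPM in the YFP-negative and 176, 73.1, 98.6 and 51.9 CPM in the YFP-positive replicates 1 to 4. The positive library was lower in 4 of 4 pairs, by the least in number 2 and the most in number 4, and the groups overlapped. Cxcl10 fell to 0.714-fold with the block (log2 -0.49 ± 0.10 SE; edgeR adjusted p = 0.0199; adjusted p in the authors' deposited table: 0.00074). The call was kept without number 2 (adjusted p = 0.00328) and lost without number 1, 3 or 4 (0.109, 0.0616 and 0.0779). Art3 overlaps it on the other strand at a mean of 6.46 CPM.

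Cxcl9, which lies 25291 bases from Cxcl10 (measured between the lower coordinates of the genes) and depends mainly on interferon gamma, stood at 19.8, 6.90, 76.8 and 7.84 CPM in the YFP-negative and 16.5, 7.87, 87.0 and 9.98 CPM in the YFP-positive replicates 1 to 4. Number 3 stood far above the rest in both groups, and its log2 fold change with the block was 0.10 (interval -0.18 to 0.39; edgeR adjusted p = 0.891). Counts of Cxcl9 per count of Cxcl10 were 0.0797, 0.0830, 0.615 and 0.0802 against 0.0938, 0.108, 0.882 and 0.192 in replicates 1 to 4. The ratio was higher in the positive library of 4 of 4 pairs, with a log2 difference of 0.60 that did not pass (exact two-sided permutation p = 0.457, adjusted 0.8995 over the 7 ratios). That test does not use the pairing, and number 3 lay far above the others in both groups, so it does not measure the difference within pairs. Cxcl11, the third CXCR3 ligand, had 13 counts in all YFP-negative libraries and 1 in YFP-positive ones. The annotation lists it as a polymorphic pseudogene, and Art3 and Gm2673 overlap it on the other strand.

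Of the chemokines that are made as membrane-anchored proteins, Cxcl16, the ligand of CXCR6, was the steadiest member across numbers. It stood at 124, 168, 129 and 137 CPM in the YFP-negative and 160.2, 189.8, 156 and 136 CPM in the YFP-positive replicates 1 to 4. The positive library was higher in 3 pairs, and number 4 had nearly equal values. Its log2 fold change with the block was 0.20 ± 0.07 (SE; edgeR adjusted p = 0.245). With library sizes alone, a scaling that shifts the median of all genes by 0.09, it was called higher (0.0437). Zmynd15 overlaps it on the other strand at a mean of 41.1 CPM, a level that could bear on its value if counting ignored the strand. Cx3cl1, the ligand of CX3CR1, was low, at 2.26 ± 0.82 and 1.88 ± 1.06 CPM (SD, n = 4).

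Cxcl14, a CXC chemokine expressed by intestinal fibroblasts, stood at 68.2, 133, 47.1 and 50.1 CPM in the YFP-negative and 92.1, 129, 69.1 and 70.7 CPM in the YFP-positive replicates 1 to 4. As with Ccl11, number 2 was highest in both groups and the only pair without a higher positive library. The log2 fold change with the block was 0.36 ± 0.10 (SE; edgeR adjusted p = 0.0676; adjusted p in the authors' deposited table: 0.0733). Without number 2 it was called higher (0.00498), and also with library sizes alone (0.0225). It was not called without number 1, 3 or 4, and its highest adjusted p over the 8 blocked fits was 0.358. Pf4, known from platelets, stood at 1.15 ± 0.54 and 1.74 ± 0.72 CPM, higher in 4 of 4 pairs, with an edgeR adjusted p of 0.801 with the block.

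Ccl3, Ccl4, Ccl5, Ccl6 and Ccl9, CC chemokines that myeloid cells and lymphocytes make in quantity, were scarce, and none was called in either edgeR fit. Ccl6 stood at 4.67 ± 3.77 and 3.95 ± 2.42 CPM (SD, n = 4), and Ccl4 at 1.44 ± 1.05 and 1.83 ± 1.20 CPM. Ccl5, at 1.82 ± 0.83 and 1.68 ± 2.07 CPM, had 0 counts in YFP-positive replicate 3, and Ccl9 stood at 2.21 ± 2.09 and 1.23 ± 0.66 CPM. Ccl3 differed most between libraries, from 0.101 to 8.18 CPM within the YFP-negative group, and its log2 interval with the block ran from -2.49 to 4.24. Marker genes of leukocytes summed to more in the positive library of 4 of 4 pairs, at 6.14 to 17.4 CPM summed over 7 genes in YFP-negative and 10.1 to 34.3 CPM in the YFP-positive libraries, with none of the 7 at 0. Singly, Cd52, Coro1a and Cd53 were higher in 4 of 4 pairs and the other 4 were not, and none of the 6 tested was called. Those of macrophages and monocytes summed to 23.0 to 40.0 and 22.7 to 50.1 CPM over 8 genes, higher in 3 of 4 pairs. This list was mixed: Csf1r and Adgre1 were higher in 4 of 4 pairs, and Cd68 was lower in 4 of 4. Lyz2, C1qa, C1qb and Cd14 went both ways, and none of the 7 tested genes was called. The part of leukocytes and macrophages in these low levels was not tested.

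The other CC genes were near the limit of detection. Ccl27a, a skin-homing chemokine, stood at 1.67 ± 0.33 and 2.78 ± 1.08 CPM (SD, n = 4), higher in 4 of 4 pairs, but Il11ra1 overlaps it on the other strand at 49.6 CPM. Ccl28, a mucosal epithelial chemokine, had 40, 3, 21 and 1 counts in YFP-negative and 0, 2, 55 and 45 in YFP-positive replicates 1 to 4. Below the filter, Ccl22 had 19 counts against 0 over all libraries of a group, Ccl17 10 against 18, Ccl1 19 against 3, Ppbp 10 against 11 and Cxcl15 2 against 14. Cxcl17 had 3 against 4, Xcl1 2 against 1 and Ccl20 0 against 2. The 10 entries at 0 were Ccl26, the pseudogenes Ccl19-ps1 and Ccl19-ps3, Ccl27b, Ccl21c, and the repeated entries of Ccl27 and Ccl21b, most of which have near-identical copies. The sources used here do not give how reads that match several copies were counted.

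Over the 23 tested members, 4 were lower in all 4 pairs (Cxcl1, Cxcl10, Ccl7 and Ccl2) and 2 higher (Pf4 and Ccl27a). Over all tested genes these shares were 10.2% and 8.86%. No member had groups that did not overlap, against 1.55% of all tested genes.

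The members also varied with the replicate number. Of the 12 members at or above 5 CPM, 10 had their highest level in the same number in both groups, 83.3%, against 59.0% of the 10534 tested genes at that level. The fold between the highest and the lowest pair had a median of 2.92 over the 12 members, from 1.31 for Cxcl16 to 11.1 for Cxcl9, against a median of 1.64 over all genes at that level. Within a pair the median fold was 1.26 over the members, with a highest of 2.85, against a median of 1.14 over all genes at that level. A highest-to-lowest fold over 4 numbers is wider by construction than a typical fold of 2 libraries, so the sizes of these folds cannot be compared directly. These values describe the spread and carry no test. The members did not vary as 1 block: Cxcl1, Cxcl2, Cxcl5 and Ccl2 were lowest in number 4 in both groups. Cxcl3, Cxcl10 and Cxcl16 were lowest in number 4 by the mean of each pair, but not in each group. Cxcl3 was lowest in number 3 among YFP-positive libraries. Among YFP-negative libraries, Cxcl10 was lowest in number 2 and Cxcl16 in number 1. In both groups Ccl11, Cxcl14 and Cxcl16 were highest in number 2, and Cxcl9 and Ccl8 in number 3.

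**Figure D3:**
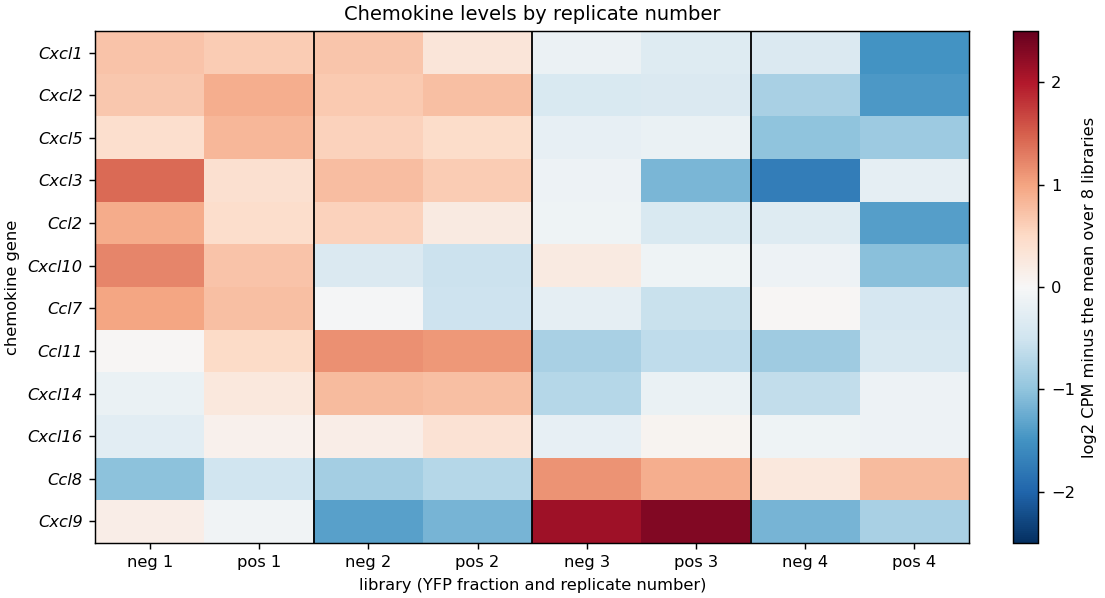
Log2 CPM of the 12 chemokine genes at or above 5 CPM minus the mean of that gene over the 8 libraries, with libraries ordered by replicate number and lines between numbers. Both libraries of a number mostly share a colour; Cxcl9 and Ccl8 are high in number 3, Ccl11 and Cxcl14 in number 2, and Cxcl1, Cxcl2 and Cxcl5 are low in number 4.

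Count ratios of neighbouring genes compare 2 members within a library, so that library size cancels. For 5 of the 7 ratios the difference changed sign when a single library was left out: Ccl2/Ccl7, Ccl11/Ccl8, Cxcl5/Cxcl3, Cxcl3/Cxcl1 and Cxcl9/Cxcl10. Ccl7 per count of Ccl11, its neighbour at 12111 bases, was lower in the positive library of 4 of 4 pairs: 0.0955, 0.0220, 0.0740 and 0.0934 against 0.0599, 0.0162, 0.0526 and 0.0485. Its log2 difference of -0.64 did not pass over the groups (exact two-sided permutation p = 0.40, adjusted 0.8995 over the 7 ratios). Number 2 lay far below the others in both groups, and the test does not use the pairing.

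**Figure D4:**
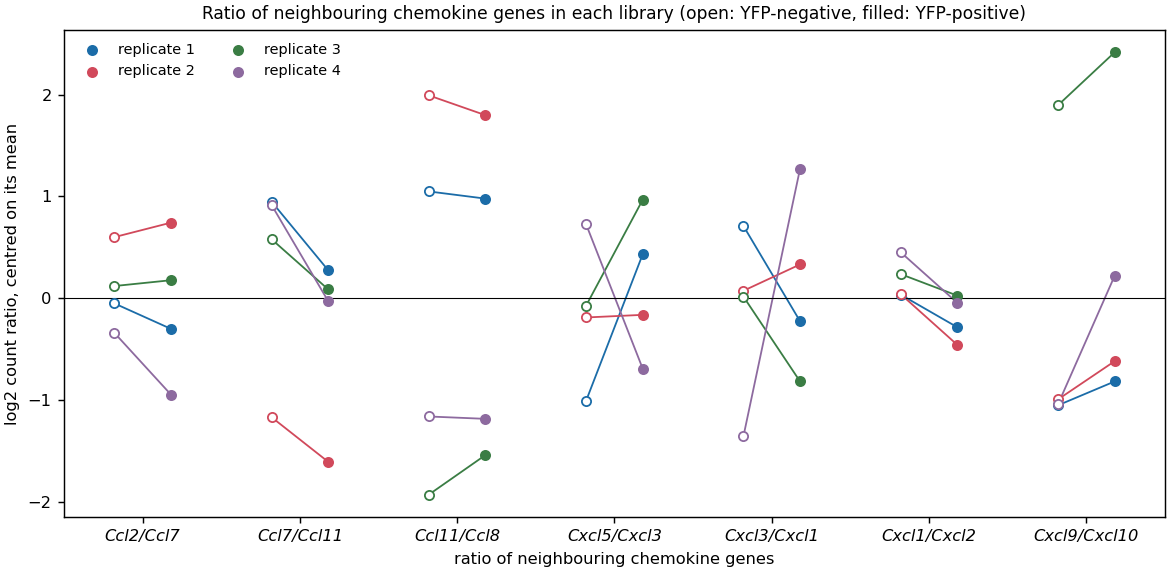
Log2 count ratio of 7 pairs of neighbouring chemokine genes in each library, centred on the mean of that ratio; open points are YFP-negative, filled points YFP-positive, and lines join equal replicate numbers. All 4 lines slope down for Cxcl1/Cxcl2 and Ccl7/Ccl11 and up for Cxcl9/Cxcl10.

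Genes around the chemokines were read from 6 lists in the same fits; with group alone, 0 of their genes were called. Of 13 genes that feed back on NF-κB or control the decay of chemokine mRNA, 4 fell with the block and 0 rose, where 1.59% of all tested genes were called lower; the median log2 fold change was -0.28. Tnfaip3, which encodes the NF-κB inhibitor A20, fell from 954 ± 366 to 729 ± 320.5 CPM (SD, n = 4; edgeR adjusted p = 0.0128). Nfkbiz, an IκB protein that also acts as a coactivator of inflammatory genes, fell from 495 ± 143 to 371 ± 136 CPM (0.0184), and Zfp36l2, an mRNA decay factor, from 179 ± 34.6 to 148 ± 34.9 CPM (0.0353); another gene overlaps Zfp36l2 on the other strand. The fourth, Nfkbie, was named after its value was seen (0.0486). Without number 1 none of the 4 was called (0.0865, 0.0998, 0.111 and 0.188); Zfp36l2 was not called without any single number, and Nfkbie only without number 2 (0.0364). With library sizes alone, Zfp36l2 and Nfkbie were not called (0.193 and 0.136).

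Il6, a cytokine that injured fibroblasts make, was the only gene called among 10 growth factors and adhesion partners of neutrophils and monocytes. It fell from 599 ± 258 to 426 ± 221 CPM (SD, n = 4; log2 -0.54 ± 0.10 SE; edgeR with the block, adjusted p = 0.0216), and was not called without number 1 or 3 (0.104 and 0.0555). Mmp12, a metalloprotease that cleaves chemokines, fell from 14.7 ± 9.87 to 4.83 ± 3.19 CPM (adjusted p = 0.00647; 0.0597 without number 1), 1 of 12 proteases; Mmp1b overlaps it on the other strand. None of 12 interferon response genes was called (median -0.15): the most abundant were Irf1, at 308 ± 90.8 and 284 ± 108 CPM, and Gbp2, at 79.2 ± 27.8 and 74.0 ± 32.3 CPM.

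Of the inducing cytokines and their receptors, 14 of 16 were tested and none was called (median 0.14). Il1r1, the signalling receptor of IL-1, stood at 713 ± 118 and 715 ± 97.7 CPM, and the TNF receptor Tnfrsf1a at 619 ± 60.4 and 592 ± 85.9 CPM (SD, n = 4); Ifng had 0 counts. Of 19 chemokine receptors only 5 passed the filter and none was called, with a median of 0.06; Ccr8, Cxcr1 and Xcr1 were at 0. The most abundant were Cx3cr1, at 62.6 ± 16.7 and 54.6 ± 21.2 CPM, which several genes overlap on the other strand, and the atypical receptor Ccrl2, at 46.9 ± 11.1 and 46.8 ± 19.0 CPM.

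Markers of other cells moved with the fractions too. Fibroblast markers summed to less in the positive library of 4 of 4 pairs, and edgeR with the block called 5 of 7 lower (Col1a1, Col1a2, Col3a1, Dcn and Lum), where it called 1.59% of all genes lower. The other list members were not called: Pdgfra stood at 1668 ± 266 and 1670 ± 312 CPM (SD, n = 4; edgeR adjusted p = 0.993), and Thy1 had 0.866. DESeq2 with the block did not call Col1a1 or Col3a1 (adjusted p = 0.294 and 0.568), and without number 3 edgeR did not call Col1a1 or Col1a2 (0.109 and 0.0671). The smooth muscle sum was higher in 4 of 4 pairs. The pericyte list was mixed: Rgs5 went from 1140.5 ± 196 to 886 ± 143 CPM (SD, n = 4) and carried a sum that was lower in 4 of 4 pairs, while the other 4 genes had positive log2 fold changes (0.15 to 1.18). Enteric glia markers summed to 5.21 to 33.8 CPM in the YFP-negative and 1.52 to 3.86 CPM in the YFP-positive libraries, and platelet markers to 4.56 to 9.80 and 2.93 to 7.60 CPM, each lower in 4 of 4 pairs; Gp9 was at 0. Their part in the lower Cxcl10, Ccl7 and Ccl2 was not tested.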

How the data were processed

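Stromal cells were sorted by flow cytometry and libraries were prepared from total RNA with a stranded SMARTer Pico kit (Takara) and sequenced on an Illumina NextSeq, per the labels' protocols. The submitters' processing notes name cutadapt 3.4, STAR 2.7.3a, featureCounts 2.0.1, DESeq2 and GRCm38; the sources used here do not give settings, annotation release or strand of counting. Per the file headers, the authors deposited raw counts for each gene in each library. The table further gives normalised values, a rounded score of counts over size factors made by the authors, and the authors' log2 fold changes with their p-values, per the file headers. Recomputed size-factor values differed from the score by at most 0.499995. The authors' fold changes differed by at most 0.0005 from DESeq2 blocked on the replicate number, but by up to 22.9 from DESeq2 with no block.

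All tests were run here on the deposited counts: edgeR 4.0.16 (R 4.3.3), filterByExpr by group, TMM factors, robust quasi-likelihood fit, two-sided, Benjamini-Hochberg over 15945 genes, with a call at adjusted p up to 0.05. Errors after ± are SDs over 4 libraries unless marked SE, and intervals have 95% confidence. Sample titles gave the groups and replicate numbers. Deviations from the group means correlated at 0.233, 0.487, 0.376 and 0.376 between libraries of equal number and at most 0.0456 between other numbers, so the numbers were taken to pair the libraries, from the data and not from the labels. The fit without the block is the main one; single members are described by their blocked values, since the block changes some calls. Alternatives were DESeq2 1.42.0, voom with quality weights (limma 3.58.1), other scaling factors and filters, and each library left out. Count ratios of members at or above 5 CPM that neighbour each other within 1 Mb were added after seeing the data, with exact permutation tests over 70 assignments. These permutation tests do not use the pairing. Replicate libraries all differed by more than sampling noise. Coordinates, exon lengths and overlaps are from GENCODE M21, which held all 42 members, and promoters from the RefSeq table.

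Members with at least 5 CPM are given in every library and the rest by counts or ranges; from each list, up to 3 called genes per direction or else the 2 most abundant are named. Siglecf, a marker in the eosinophil list, was not analysed here. The rule for the members uses symbols only, but it and the lists were chosen with earlier results of these data known.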

Additional observations from a re-analysis of the deposited data

Results flagged for a closer look

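In each group of 4 libraries, the gap between an extreme library and its nearest neighbour was set against the range of the group for the 12 members at or above 5 CPM, the sum of all members and the 7 neighbour ratios. Of 40 groups checked, 5 had a library farther from the others than Dixon's 95% limit; chance gives about 1 in 20. Ccl7 was highest in replicate 1 in both groups, at 101 CPM (YFP-negative) and 86.2 CPM (YFP-positive). Cxcl9 was highest in replicate 3 of the YFP-positive group, at 87.0 CPM. The count ratio of Cxcl9 to Cxcl10 was highest in replicate 3 of both groups, at 0.615 and 0.882. What sets these libraries apart was not tested.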

How the results depend on the processing

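With group alone, the edgeR count of 0 called members held under library sizes alone, upper-quartile and RLE factors, both other count filters, voom, DESeq2 and each single library left out; DESeq2 called 2 genes lower in all. The replicate block changed the counts. With it, edgeR called 111 genes higher and 253 lower, DESeq2 155 and 341, edgeR with library sizes alone 212 and 153, and with RLE factors 99 and 265. Members called lower numbered 2, 3, 2 and 3 in these 4 fits; members called higher numbered 2 with library sizes alone and 0 in the others. Of the 6 lists, 6, 10, 4 and 7 genes were called lower, and 1 higher with library sizes alone. Without the block, leaving out any 1 library gave 0 calls in each of these counts. With the block, fits without number 1, 2, 3 and 4 called 73, 130, 38 and 47 genes higher and 121, 296, 119 and 120 lower. Members called higher numbered 2 without number 2 and 0 otherwise, and members called lower 0, 1, 1 and 1. List genes called lower were 2, 5, 4 and 4, and 1 was called higher without number 1.

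Some log2 fold changes of members that the main test did not call changed sign. Under voom, Cxcl2 was at -0.0900, Ccl6 at 0.49, Ccl3 at 1.26, Ccl4 at -0.0656, Ccl12 at -0.0628 and Ccl24 at -0.0437. With the replicate block, Cxcl2 was at -0.0573 in edgeR, -0.0649 in DESeq2 and -0.0655 with RLE factors. Ccl6 was at 0.13, 0.14, 0.22 and 0.12 in edgeR, DESeq2, library sizes alone and RLE factors, and Ccl3 at 0.87, 1.03, 0.98 and 0.86. With the block and without numbers 1, 2 and 3, Cxcl2 was at -0.16, -0.11 and -0.0913; without numbers 1 and 3, Cxcl3 was at 0.0809 and 0.0456. Without numbers 1, 2 and 4, Ccl6 was at 0.63, 0.28 and 0.0384 and Ccl3 at 2.12, 1.16 and 0.00557; without number 4, Ccl4 was at -0.0117 and Ccl28 at -1.35.

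Without the block, leaving out single libraries gave Ccl11 from -0.22 to 0.79, Cxcl2 from -0.25 to 0.36, Cxcl5 from -0.16 to 0.36, Ccl7 from -0.76 to 0.00247, Cxcl9 from -1.28 to 1.40, Ccl8 from -0.13 to 0.71 and Cxcl3 from -0.76 to 0.11. It gave Ccl6 from -0.74 to 0.26, Ccl3 from -0.66 to 1.14, Ccl5 from -1.40 to 0.30, Ccl4 from -0.12 to 1.00, Ccl28 from -0.31 to 1.55, Ccl12 from -1.63 to 1.55 and Ccl24 from -0.23 to 2.21. The log2 ratio differences moved from -0.44 to 0.12 (Ccl2/Ccl7), -0.61 to 0.69 (Ccl11/Ccl8), -0.02 to 0.56 (Cxcl5/Cxcl3), -0.13 to 0.60 (Cxcl3/Cxcl1) and -0.11 to 1.33 (Cxcl9/Cxcl10). The cause was not tested. Depth limits the members below 5 CPM most, since they rest on few counts per library.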
